A study of Mus musculus with 6 samples.

Results

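Fetal liver red cell precursors hold 2 small groups of regulators that set a developmental age: repressors of the embryonic globins and genes of the Lin28b axis. Their transcripts were followed here after knockdown of Exosc8, a core subunit of the RNA exosome, the complex that trims and degrades RNA from its 3' end. The members were taken by name, in a choice made with earlier results of these data known: Bcl11a, Zbtb7a and Sox6 for the repressors, and Lin28b, Igf2bp1, Igf2bp3 and Hmga2 for the Lin28b axis. All probes carrying these gene names were taken, 12 of 55660 probes with usable spots, for 7 of 34950 names. Of these, 11 probes passed the filter on dim signal and stood for all 7 genes.

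The study used erythroid progenitors from mouse fetal liver at E-14.5, infected with retrovirus and cultured for 3 days with erythropoietin, dexamethasone and medium conditioned by cells making kit ligand. In 3 samples the virus carried a hairpin against Exosc8 (shExosc8), and in 3 a hairpin against luciferase, which mouse cells lack (shControl). Each sample was hybridised to its own single-colour array of Cy3-labelled RNA. No label gives a strain, the number of embryos or the infected share of the cells, or says whether replicates came from separate cultures, so each p-value covers no more than the variation among these 6 samples, and that variation may be technical.

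Bcl11a is a zinc finger protein that represses embryonic and fetal globin genes, and Zbtb7a (also called LRF) is a separate repressor of the same genes. Sox6 is an HMG-box protein that acts with Bcl11a and silences the embryonic beta-type globin in mouse. Lin28b binds the precursors of the let-7 microRNAs and keeps them from being processed. The let-7 family in turn lowers messengers of growth regulators, among them Hmga2, a chromatin protein of fetal stem cells, and the RNA-binding proteins Igf2bp1 and Igf2bp3. In fetal blood formation this axis is high and falls towards birth.

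The sequences that tie these members together are shown first. The let-7 microRNAs share the seed, bases 2 to 8 from the 5' end, which pairs with their targets. The seed is in capitals in 4 of the 9 family members listed by RefSeq, all 9 of which had the same 7 letters (sequences from RefSeq, GRCm38.p6).
let-7a-5p: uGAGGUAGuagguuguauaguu
let-7d-5p: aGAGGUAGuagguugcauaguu
let-7g-5p: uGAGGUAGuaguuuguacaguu
miR-98-5p: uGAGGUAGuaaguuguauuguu

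The let-7g hairpin (RefSeq, GRCm38.p6, chr9:106178840-106178927, plus strand) is the kind of precursor that Lin28b binds, and the capitals mark GGAG, the letters known for Lin28 binding in its loop.
let-7g hairpin: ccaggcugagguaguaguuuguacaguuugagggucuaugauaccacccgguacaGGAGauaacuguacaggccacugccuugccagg
GGAG was found in 9 of 11 let-7 hairpins and in 44.5% of all 1005 mouse hairpins in the table. It was searched on the hairpin strand alone, and a match is a description and not a binding site. Levels of let-7 itself were not analysed here.

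Of the 12 member probes, 1 of the Hmga2 probes held CTACCTC, the DNA letters complementary to the seed. Over all 55681 probes the match was found on the probe strand in 0.366% and on the other strand in 0.259%. The stretch around it is shown with the match in capitals (mm9, chr10:119798739-119798765, minus strand).
Hmga2 probe A_52_P300730: aaaacacactaCTACCTCttaagtccc
The probe is 60 bases long and so lies on a stretch that carries a let-7 seed match.

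On the arrays, between 25580 and 39936 of 59305 spots that were not controls were well above background. The highest count was that of shControl replicate 2, at 67.3% of spots, against 43.1% to 49.3% on the other 5 arrays. On the slide, row 2 held all shExosc8 arrays and row 1 all controls. The effects of row and of hairpin therefore cannot be told apart. Exosc8 stood at 40% to 57.4% of the control mean on the shExosc8 arrays and at 97.8% to 104% on the controls (log2 fold change -1.14 ± 0.16, SE, n = 3 per group, limma adjusted p = 0.00554). All 9 erythroid markers on the array were above background on all 6 arrays, among them Slc4a1 and Gata1. The marker list as a whole and the markers of other cells are given with the results they move with. In RNA from whole cultures, fewer cells of a type and less RNA per cell cannot be told apart.

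After Exosc8 knockdown, 2 of the 4 genes of the Lin28b axis and 1 of the 3 globin repressors fell. Igf2bp1 fell to 55.0% of the control level, Bcl11a to 66.1% and Igf2bp3 to 70.9%. Sox6 stood at 184% of the control level and did not pass the test, and Zbtb7a stood at 111%. Of the 7 members, 3 fell and 0 rose in limma with Benjamini-Hochberg adjustment over 18228 genes, each read from its brightest probe, where 4 had an unadjusted p under 0.05. Over all genes 29.8% changed at the same threshold of 0.05, 13.8% downward and 16.0% upward. The fitted difference was below 0 for 5 of the 7, where the median over all genes was -0.061. The share of all genes with an unadjusted p under 0.05 was not counted, and is no lower than the 29.8%. With no filter on dim probes or with the slide column as a block, 0 of the 7 passed, where 5.19% and 2.95% of all genes did. With either normexp background correction Bcl11a and Sox6 were the 2 that passed. Over all genes 28.8% then passed with quantile normalization and 26.5% with the 75th percentile.

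Read probe by probe, 4 of 11 member probes fell and 0 rose, against 13.1% of all 24836 kept probes that fell and 14.7% that rose. The 3 arrays of each group did not overlap for 8 of the 11 probes, beside 50.5% of all kept probes, and for 5 of the 7 genes, beside 51.6% of all genes. In the authors' deposited table, 0 of these 11 probes had an adjusted p under 0.05 and 5 an unadjusted one. The shares of all probes in that table were not counted, so these counts have no background. A difference below 0 was found for 9 of 11 in both that table and the present fit of single probes. The exact permutation test of 3 against 3 arrays cannot give a p below 0.1, two-sided, and it is quoted below on that footing.

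**Figure D1:**
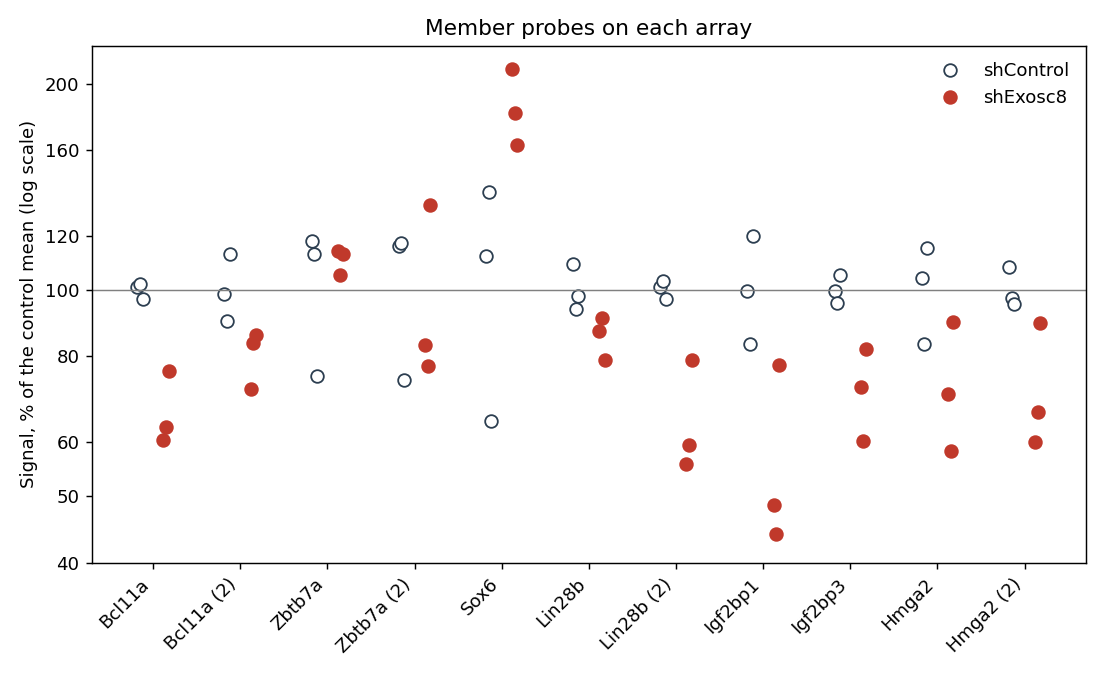
Signal of the 11 member probes that passed the filter, as percent of the control mean on a log axis, with 1 point per array (open, shControl; filled red, shExosc8; n = 3 per group); "(2)" marks the second, dimmer probe of a gene. The shExosc8 points of Bcl11a, Igf2bp1 and Igf2bp3 lie below all control points, those of Sox6 lie above them, and those of Zbtb7a are mixed.

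Among the repressors, Bcl11a fell. On the log2 scale, its brightest probe (A_55_P1958275, mm9 chr11:24073114-24073173, plus strand) read 13.92, 13.98 and 14.26 on shExosc8 arrays 1, 2 and 3 and 14.67, 14.68 and 14.61 on the controls. Every shExosc8 array was below every control, and replicate 3 was the nearest to them at 76.2% of the control mean, against 60.3% and 63.0%. It fell by 0.60 ± 0.12 on the log2 scale (SE, n = 3 per group), with a 95% interval of 53.9% to 81.1% of the control level and an adjusted p of 0.0165 from limma. The call was lost when any single array other than shExosc8 replicate 3 was left out, at adjusted p of 0.0522 to 0.0672, and the difference stayed between -0.71 and -0.53. Without shExosc8 replicate 3 the adjusted p was 0.00474.

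The files assign the other Bcl11a probes to other transcripts of the gene. The probe A_55_P1988872, 4759 bases away (mm9 chr11:24068355-24068414), read 11.96, 12.19 and 12.22 on shExosc8 arrays and 12.42, 12.29 and 12.61 on controls. The groups did not overlap and the difference of -0.32 ± 0.14 (SE, n = 3 per group) did not pass, at a limma adjusted p of 0.12. The probe A_55_P1958270 (mm9 chr11:24074059-24074118) was above background on 0 of 6 arrays and gives no level. Within arrays, the brighter probe changed by -0.28 more than the second, with SD of 0.12 and 0.20 in the groups (exact permutation p = 0.2, two-sided, n = 3 per group, 0.533 adjusted over 4 pairs of probes).

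Zbtb7a did not pass the test, and its sign varied with the settings. On the log2 scale, its brighter probe (A_55_P2159890, mm9 chr10:80614064-80614123) read 11.35, 11.23 and 11.33 with the hairpin against Exosc8 and 11.40, 11.33 and 10.74 in the controls. The groups overlapped, because shControl replicate 3 was low at 75% of the control mean and the other controls were at 118% and 113%. The difference was 0.15 ± 0.19 (SE, n = 3 per group, limma adjusted p = 0.576), with a 95% interval of 80.5% to 152% of the control level. It stood at -0.068 without shControl replicate 3, at -0.35 with no normalization between arrays and at -0.084 with the slide column as a block. The second probe (A_52_P613808, mm9 chr10:80607705-80607764) read 9.87, 9.76 and 10.54 against 10.34, 10.36 and 9.70, a difference of -0.076 ± 0.28 (SE, n = 3 per group, limma adjusted p = 0.85). Its sign turned with the array left out: it stood at 0.069 without shExosc8 replicate 2 and at -0.33 without shExosc8 replicate 3.

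Sox6 was higher on all 3 shExosc8 arrays. Its probe (A_52_P475356, mm9 chr7:122615418-122615477, minus strand) read log2 values of 9.45, 9.24 and 9.09 there and 8.55, 8.86 and 7.75 in the controls. The groups did not overlap, and the control values spread from 64.4% to 139% of their mean while the shExosc8 values were at 210%, 181% and 163%. The difference was 0.88 ± 0.29 (SE, n = 3 per group), with an adjusted p of 0.063 from limma and a 95% interval of 113% to 298% of the control level. Without shControl replicate 3, the lowest control, the difference was 0.55 (adjusted p = 0.0969). Without shControl replicate 2 it was 1.11 (adjusted p = 0.0438), and with the 2 normexp background corrections it was 0.57 (adjusted p = 0.045) and 0.76 (adjusted p = 0.0217).

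Differences between 2 members on the same array do not depend on how whole arrays are scaled. The signal of Sox6 relative to Bcl11a was higher by 1.47 in shExosc8 (SD 0.35 and 0.53 within the groups), and that of Zbtb7a relative to Bcl11a by 0.74 (SD 0.18 and 0.32). Both reached the smallest exact permutation p of 0.1, two-sided (n = 3 per group), and 0.25 when adjusted over 5 such comparisons. The 5 pairs were chosen with their values known.

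Markers of other blood cells moved between the same groups as the repressors. Of 12 megakaryocyte markers 12 rose, and their summed signal was 333000 to 475000 on shExosc8 arrays against 35400 to 51500 on controls. Of 12 neutrophil and monocyte markers 11 rose, and of 6 kept stem and progenitor markers 4 rose and 1 fell, with summed signal of 9840 to 14600 against 10400 to 18300. Of 9 erythroid markers 3 rose and 1 fell, with summed signal of 1480000 to 2270000 against 1060000 to 1290000. Of 6 kept mast cell markers 4 rose and 1 fell, of 5 kept macrophage markers 3 rose, and of 7 kept hepatocyte markers 4 rose while Alb, Ttr and Apoa1 did not pass the filter. The fall among mast cell markers and that among stem and progenitor markers are the same gene, Kit, which is on both lists. Over all genes 16.0% rose and 13.8% fell. The B cell genes Pax5 and Ebf1 did not pass the filter, and of 5 kept lymphoid markers 1 rose, with summed signal of 1710 to 1900 against 1310 to 1530. The part of other cells in the values of the members was not tested.

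In the Lin28b axis, 1 of the 2 Lin28b probes passed the test. The brighter one (A_55_P1970905, mm9 chr10:45096468-45096527, minus strand) read log2 values of 13.60, 13.66 and 13.46 on shExosc8 arrays and 13.92, 13.71 and 13.77 on controls. The groups did not overlap but lay close, and the difference of -0.22 ± 0.11 (SE, n = 3 per group) did not pass, at an adjusted p of 0.169 from limma. The 95% interval was 70.9% to 103% of the control level.

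The second Lin28b probe lies 43944 bases from the first in the genome (mm9 chr10:45140412-45140471, minus strand). It is shown because it is the Lin28b probe that passed the test. Its 60 bases are free of stop codons in 1 of 3 reading frames, as are those of most member probes. The brighter Lin28b probe, like that of Igf2bp1, is free of them in 0 of 3. Whether these probes lie in coding sequence was not tested.
Lin28b probe A_52_P532355: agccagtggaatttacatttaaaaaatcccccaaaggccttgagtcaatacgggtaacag
It read 7.34, 7.43 and 7.84 on shExosc8 arrays against 8.19, 8.22 and 8.14 on controls (log2). Every shExosc8 array was lower, at 55.8%, 59.4% and 79.1% of the control mean. The probe fell by 0.64 ± 0.16 on the log2 scale (SE, n = 3 per group, limma adjusted p = 0.0275 over all probes). The call held in 1 of 6 fits with an array left out, that without shExosc8 replicate 3 (-0.80, adjusted p = 0.00441). It was also lost with normexp background correction, at -0.21 (adjusted p = 0.286) with the 75th percentile and at -0.47 (adjusted p = 0.0554) with quantile normalization.

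Within arrays the brighter Lin28b probe stood higher relative to the dimmer one by 0.42 in shExosc8, with SD of 0.37 and 0.12 in the groups. The exact permutation p was 0.3, two-sided (n = 3 per group), and 0.533 adjusted over 4 pairs of probes, in a design that cannot go below 0.1. With the mean of both probes in place of the brighter one, Lin28b fell by 0.43 on the log2 scale (limma adjusted p = 0.0239).

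Igf2bp1, which binds and stabilises messengers such as that of Myc, had the largest fall among the members by its fitted value. Its probe (A_51_P497113, mm9 chr11:95824526-95824585, minus strand) read log2 values of 9.40, 9.25 and 10.07 on shExosc8 arrays and 10.43, 10.18 and 10.70 on controls. The groups did not overlap, but shExosc8 replicate 3 at 77.7% of the control mean came close to shControl replicate 2 at 83.5%. It fell by 0.86 ± 0.25 on the log2 scale (SE, n = 3 per group, limma adjusted p = 0.0452), with a 95% interval of 36.1% to 83.6% of the control level. The call held only without shExosc8 replicate 3 among the 6 fits with 1 array left out (-1.12, adjusted p = 0.00775), and the other 5 gave adjusted p of 0.0628 to 0.14.

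Igf2bp3, the closest relative of Igf2bp1 among the members, fell as well. Its probe (A_52_P508974, mm9 chr6:49035710-49035769, minus strand) read log2 values of 9.69, 9.43 and 9.88 on shExosc8 arrays and 10.16, 10.10 and 10.23 on controls. All shExosc8 values, at 60.2% to 82.1% of the control mean, were below all controls, at 95.8% to 105%. The gene fell by 0.50 ± 0.14 on the log2 scale (SE, n = 3 per group, limma adjusted p = 0.0406), with a 95% interval of 56.2% to 89.4% of the control level. As for Igf2bp1, the call held with 1 array left out only without shExosc8 replicate 3 (-0.61, adjusted p = 0.0135), against adjusted p of 0.0803 to 0.126 without each other array. Igf2bp1 changed by -0.37 more than Igf2bp3 within arrays, with SD of 0.26 and 0.20 in the groups (exact permutation p = 0.2, two-sided, n = 3 per group, 0.3 adjusted over 5 comparisons).

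Hmga2 gave similar differences on both of its probes and neither passed. The brighter probe, the one with the let-7 seed match, read log2 values of 7.89, 7.61 and 8.24 on shExosc8 arrays and 8.45, 8.13 and 8.60 on controls. The groups overlapped, since shExosc8 replicate 3 at 89.7% of the control mean was above shControl replicate 2 at 83.4%. The difference was -0.48 ± 0.20 (SE, n = 3 per group, limma adjusted p = 0.114). The second probe (A_55_P2043921, mm9 chr10:119800621-119800680, minus strand) was near background: it was well above it on 1 of 3 shExosc8 arrays and on 3 of 3 controls. It stood at -0.50 ± 0.17 (SE, n = 3 per group, limma adjusted p = 0.0729), though it stood at 0.22 with normexp background correction and the 75th percentile. The within-array difference between the probes was 0.016 (exact permutation p = 0.9, two-sided, n = 3 per group), against SD of 0.21 and 0.25 in the groups.

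A probe of the Hmga2 pseudogene Hmga2-ps1 (mm9 chr1:178764768-178764827) went the other way. It is no member and was singled out after its values were seen. It read 11.73, 12.09 and 10.92 on shExosc8 arrays and 9.57, 9.55 and 10.43 on controls (log2), with no overlap. It rose by 1.73 ± 0.37 on the log2 scale (SE, n = 3 per group, limma adjusted p = 0.0185) and kept its call in 2 of 6 fits with an array left out, those without shExosc8 replicate 3 and without shControl replicate 3. Whether this probe and those of Hmga2 share signal was not tested.

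**Figure D2:**
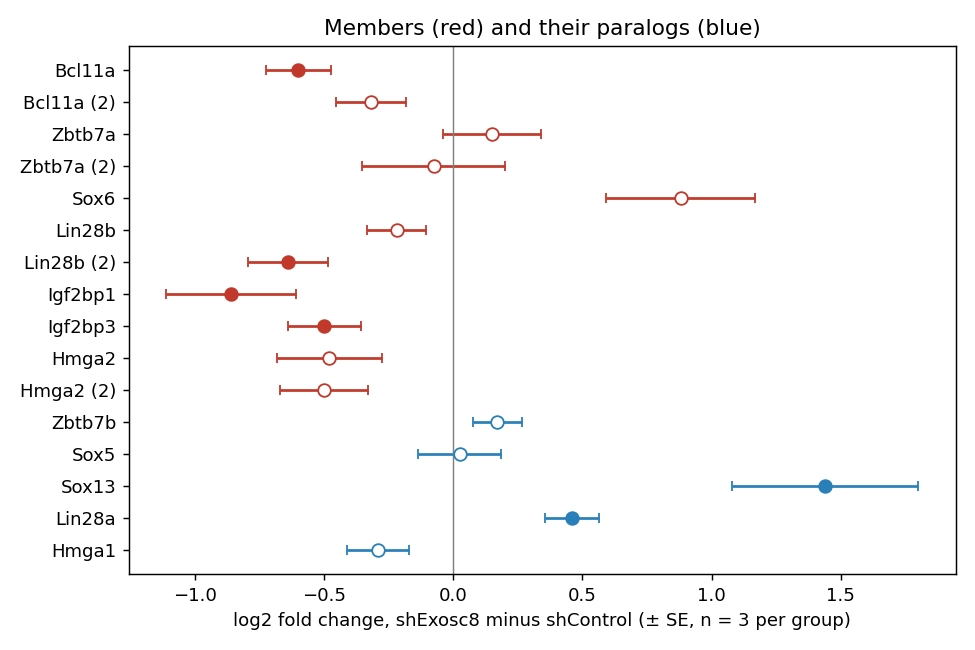
Log2 fold change (shExosc8 minus shControl) of each member probe (red, from the fit of single probes) and of each measured paralog (blue, from the fit with 1 probe per gene); bars are 1 SE, n = 3 arrays per group, and filled points have a limma adjusted p under 0.05. Bcl11a, the second Lin28b probe, Igf2bp1 and Igf2bp3 are filled and below 0, while Sox13 and Lin28a are filled and above 0.

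Among the paralogs of the members, 2 were higher. Of 8 paralogs 5 passed the filter, of which 2 rose and 0 fell, beside 16.0% and 13.8% of all genes. Lin28a, which blocks let-7 processing as Lin28b does, read 8.51, 8.52 and 8.48 on shExosc8 arrays against 7.98, 8.19 and 7.97 on controls, and rose by 0.46 ± 0.11 on the log2 scale (SE, n = 3 per group, limma adjusted p = 0.0236), though it stood at -0.039 with no normalization between arrays. Sox13, of the same SoxD group as Sox6, rose by 1.44 ± 0.36 (limma adjusted p = 0.0295), with 12.70, 12.59 and 11.40 on the shExosc8 arrays against 10.95, 10.91 and 10.52 on controls. With 1 array left out, the call of Lin28a held in 2 of 6 fits and that of Sox13 in 1.

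The remaining paralogs did not pass. Sox5 was at 0.024, Zbtb7b, which directs T cell fate, at 0.17, and Hmga1 at -0.29, with limma adjusted p of 0.919, 0.197 and 0.115. The sign of each of these 3 turned under at least 1 other setting. Bcl11b, Zbtb7c and Igf2bp2 did not pass the filter on dim signal. Whether paralogs and members differed was not tested.

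Bcl11a and Zbtb7a act through corepressor complexes with histone deacetylases, chiefly NuRD. Of 20 corepressor genes, all kept, 6 fell and 0 rose on their brightest probes, beside 13.8% and 16.0% of all genes. Among their other kept probes, 2 of 3 of Ncor1 and 1 of 2 of Mta3 were called higher. The other kept probes of Hdac1 (2 of 2) and Rcor1 (1 of 1) were called lower. Their median log2 fold change was -0.26 against -0.061 over all genes. With no normalization 12 fell and the list median was -0.76. In that setting 50.3% of all genes changed, of which 18% rose, and the median over all genes was -0.56. Rcor1, the scaffold of the CoREST complex, fell by 0.59 ± 0.11 (SE, n = 3 per group, limma adjusted p = 0.0132). The NuRD subunit gene Mta1 fell by 0.60 and the deacetylase genes Hdac1 and Hdac2 fell by 0.40 and 0.44, at adjusted p of 0.032 to 0.0345. The count of falls varied with the array left out. It was 0 without shExosc8 replicate 1, shControl replicate 1 or shControl replicate 3, and 1 without shExosc8 replicate 2 or shControl replicate 2. Without shExosc8 replicate 3 it was 9. The call of Rcor1 held in 3 of these 6 fits and those of Mta1, Hdac1 and Hdac2 in 1 each. The list median stayed between -0.31 and -0.26. Over all genes 12.8% changed without shExosc8 replicate 1 and 45.1% without shExosc8 replicate 3, against 29.8% with all arrays.

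Of 21 other regulators of the globin switch 20 were kept, 2 of which rose and 4 fell, beside 16.0% and 13.8% of all genes. Their median was -0.23. The balance depended on scaling, with 4 rises and 3 falls under normexp and quantile normalization and 1 and 11 with no normalization. Without normalization 50.3% of all genes changed, of which 18% rose. The list median was then -0.73, against -0.56 over all genes. Ldb1, which joins enhancer and promoter in the Gata1 and Tal1 complex, read 12.03, 11.88 and 11.82 on shExosc8 arrays against 13.04, 13.05 and 13.06 on controls. It fell by 1.14 ± 0.10 on the log2 scale (SE, n = 3 per group, limma adjusted p = 0.00123) and kept its call with each array left out. The arginine methyltransferase gene Prmt5 fell by 0.75 ± 0.13 (limma adjusted p = 0.0103), also with each array left out.

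Hic2, a repressor of Bcl11a transcription, fell by 0.66 ± 0.13 on the log2 scale (limma adjusted p = 0.0143, SE, n = 3 per group), from 11.59, 11.77 and 11.63 on controls to 11.11, 10.78 and 11.10. Bcl11a and Hic2 were thus both lower on their brightest probes, and the other kept probe of each was not called lower. Eif2ak1, the heme-regulated kinase, rose by 1.35 ± 0.19 (limma adjusted p = 0.00502). Outside the rule for named genes and chosen after their values were seen, Myb was the remaining fall (-0.89, adjusted p = 0.0469) and Atf4 the remaining rise (0.73, adjusted p = 0.0465). Klf1, which activates Bcl11a, did not pass at -0.37 (adjusted p = 0.0994), and it too falls outside that rule. With 1 array left out in turn, 2 to 9 genes of this list fell and 1 to 4 rose.

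Among genes that process or turn over microRNA precursors, 16 of 17 were kept, and on the brightest probes 6 fell and 1, Lin28a, rose. Their median was -0.28 against -0.061 over all genes, of which 13.8% fell and 16.0% rose. The other kept probe of Ago2 was called higher, and that of Drosha, 1 of the 6, was not called lower. The count depended on scaling, with 2 falls and 1 rise under normexp and the 75th percentile and 3 and 0 under normexp and quantile normalization. It was 9 and 0 with no normalization, where 50.3% of all genes changed, of which 18% rose. The list median was then -0.78, against -0.56 over all genes. Dgcr8, which with Drosha cuts the primary transcript, fell by 0.66 ± 0.13 (SE, n = 3 per group, limma adjusted p = 0.0135) and kept its call in 5 of 6 fits with an array left out. Prkra, a partner of Dicer, fell by 0.49 and the Argonaute gene Ago1 fell by 0.61 (limma adjusted p = 0.0207 and 0.0224). Outside the rule for named genes, Dis3l2, the exonuclease that degrades let-7 precursors tailed with uridines after Lin28 binding, did not pass at -0.12 (adjusted p = 0.412). The uridylating enzyme genes Tut4 and Tut7 did not pass either, at 0.44 and 0.16. Falls numbered 0 without shControl replicate 1, 1 without shExosc8 replicate 1 or shControl replicate 2, 2 without shExosc8 replicate 2 or shControl replicate 3, and 8 without shExosc8 replicate 3.

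Of 28 known let-7 targets outside the members, 24 were kept, 4 rose and 4 fell, beside 16.0% and 13.8% of all genes. Their median was -0.092. The balance depended on scaling, with 3 rises and 7 falls with scaling by the percentile of all probes and 2 and 10 with no normalization. Over all genes 39.2% and 50.3% changed in these 2 settings, of which 37.1% and 18% rose. With no normalization the list median was -0.59, against -0.56 over all genes. The cell cycle kinase gene Cdk6 fell by 0.89 ± 0.15 on the log2 scale (SE, n = 3 per group, limma adjusted p = 0.00986). Thbs1, which encodes a platelet granule protein, rose by 4.13 ± 0.32 (limma adjusted p = 0.000806), beside the rise of all 12 megakaryocyte markers. Mycn rose by 6.15 (limma adjusted p = 0.000355), a value that rests on control signal above background on 1 of 3 arrays and was 4.30 with normexp and quantile normalization, and the insulin receptor gene Insr rose by 0.70. Cdk6, Thbs1, Mycn and Insr each kept their call with each array left out. The remaining rise was Lin28a, also counted among the paralogs and the let-7 processing genes, whose call held in 2 of 6 such fits. Only 1 gene of the list fell without shExosc8 replicate 1 or 2 or shControl replicate 1 or 3, 2 without shControl replicate 2 and 8 without shExosc8 replicate 3.

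Of 7 messengers known to be bound by Igf2bp proteins, 5 were kept and 0 changed in limma, beside 29.8% of all genes. The count was also 0 in each fit with an array left out, while 1 of the 5, Actb, had an unadjusted p under 0.05. Myc was at -0.26 (adjusted p = 0.147), Cd44 at -0.45, Actb at 0.31 and the noncoding RNA H19 at -0.36, whose sign turned with the array left out (-0.86 to 0.34). The sign of Actb turned to -0.19 with no normalization between arrays. Igf2 did not pass the filter.

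The embryonic globins did not pass the test. They were named outside the rule, since the members include repressors of such globins. Hbb-y, the embryonic beta-type globin, read 11.90, 11.98 and 10.81 on shExosc8 arrays and 11.16, 10.87 and 9.68 on controls (log2), with overlap between the groups. It stood at 0.99 ± 0.48 (SE, n = 3 per group, limma adjusted p = 0.154). Hbb-bh1 stood at 0.13 (adjusted p = 0.826), and Hba-x at 1.94 (adjusted p = 0.0752) with signal above background on 2 of 3 controls. Of 10 measured globin names 4 rose, Hbq1a, Hbq1b, Hbb-bs and Hbb-b2, beside 16.0% of all genes. The list median was 0.99. With 1 array left out, 2 to 5 rose and the median lay between 0.66 and 1.2, with 2 rises without shExosc8 replicate 1. The call of Hbb-b2 held in 2 of these 6 fits. Signal of globin genes with nearly the same sequence may be shared between their probes, so the 10 names may not be separate measurements.

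**Figure D3:**
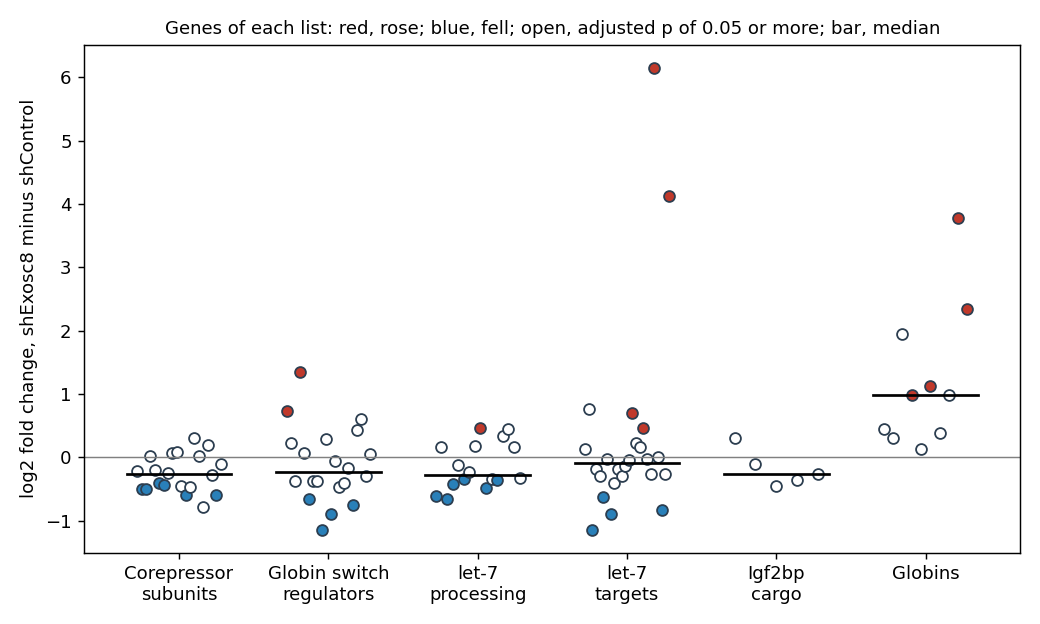
Log2 fold change (shExosc8 minus shControl) of each kept gene in 6 lists around the members, with the list median as a bar; red points rose and blue points fell at a limma adjusted p under 0.05, and open points did not pass (n = 3 arrays per group). Blue points of the corepressor and let-7 processing lists lie between -0.35 and -0.66. The let-7 target point at 6.15 is Mycn, whose control signal was above background on 1 of 3 arrays.

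For 6 of the 7 members RefSeq's table (GRCm38.p6) gives at least 1 start site. Upstream windows of 250 bases were searched on both strands for the E-box of Myc and its relatives, whose letters are CACGTG. They were also searched for the Gata1 motif AGATAA, which reads TTATCT on the other strand. CACGTG was found for Lin28b and Igf2bp3 and in 6.02% of all 32851 start windows. AGATAA was found for Zbtb7a and Lin28b and at 1 of 6 Sox6 starts, and in 9.99% of all windows. The further form TGATAA was found for none of the 6 and in 7.94% of all windows. The upstream stretches of the 3 members with 1 listed start and a match are shown, with both motifs in capitals.
Lin28b (chr10:45470202-45470451, minus strand): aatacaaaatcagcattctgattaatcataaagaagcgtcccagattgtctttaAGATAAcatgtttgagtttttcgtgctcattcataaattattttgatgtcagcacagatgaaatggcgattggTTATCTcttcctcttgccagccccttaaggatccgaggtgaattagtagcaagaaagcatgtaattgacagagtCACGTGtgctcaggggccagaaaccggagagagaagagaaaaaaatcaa
Igf2bp3 (chr6:49214955-49215204, minus strand): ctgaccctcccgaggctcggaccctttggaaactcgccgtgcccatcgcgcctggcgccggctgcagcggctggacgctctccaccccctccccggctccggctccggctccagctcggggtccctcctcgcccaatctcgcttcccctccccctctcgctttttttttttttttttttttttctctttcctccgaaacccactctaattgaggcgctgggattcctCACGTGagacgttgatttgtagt
Zbtb7a (chr10:81136021-81136270, plus strand): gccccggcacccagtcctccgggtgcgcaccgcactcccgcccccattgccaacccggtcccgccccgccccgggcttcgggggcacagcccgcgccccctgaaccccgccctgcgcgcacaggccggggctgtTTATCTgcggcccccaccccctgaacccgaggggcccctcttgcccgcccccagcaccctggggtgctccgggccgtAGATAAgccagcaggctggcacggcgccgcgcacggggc
These matches are descriptions of the letters in the windows and not sites of binding. Of the 3 genes shown, Igf2bp3 fell, Lin28b fell on its second probe alone and Zbtb7a did not pass.

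Many genes had nearly the same profile over the 6 arrays as each falling member. For Bcl11a the nearest by Pearson correlation were Tmem179b (r = 0.9996), Lsm3 (0.9986) and Snx14 (0.998), for Igf2bp1 Dus4l (0.9987), Fgd2 and Tmem70 (both 0.9984), and for Igf2bp3 Scarb1, Ryk (both 0.9989) and Dmac2 (0.9988). Correlations above 0.95 were reached by 866, 853 and 1099 of 12756 genes. The nearest to Hmga2 was Tbc1d8 (0.9997), to Sox6 Strip2 (0.9977), to Lin28b Pop1 (0.9942) and to Zbtb7a Gm9519 (0.9776), with 280, 143, 39 and 5 genes above 0.95. These correlations over 6 arrays carry the group difference and are a description.

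**Figure D4:**
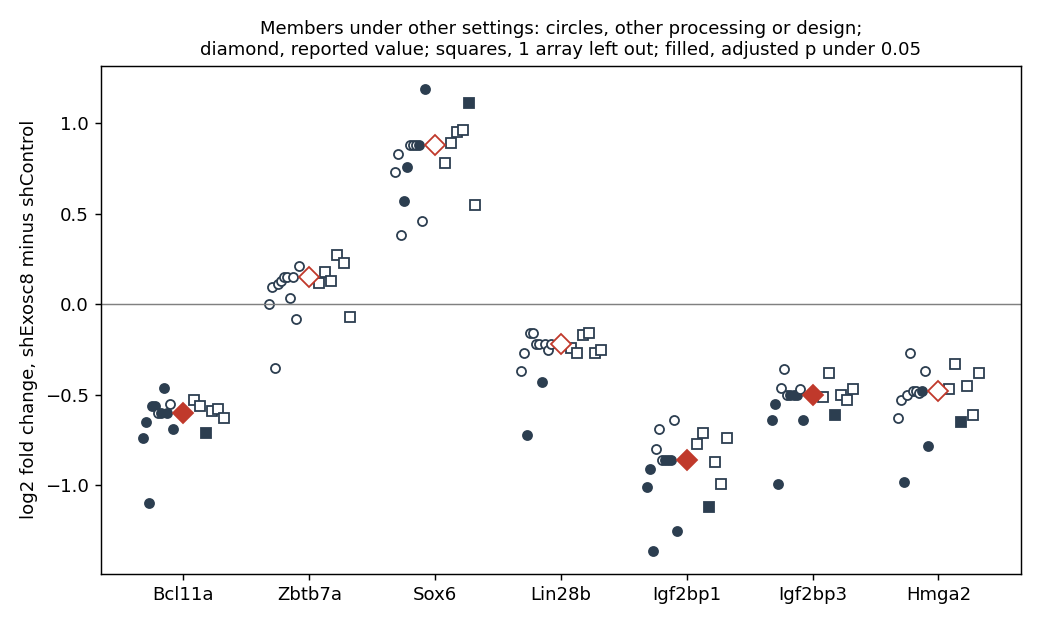
Log2 fold change (shExosc8 minus shControl) of each member with 1 probe per gene as reported (red diamond), under other processing or design choices (circles) and with 1 array left out (squares); filled symbols have a limma adjusted p under 0.05. Bcl11a, Lin28b, Igf2bp1, Igf2bp3 and Hmga2 lie below 0 and Sox6 above 0 throughout, with the lowest Sox6 value at 0.38, and Zbtb7a lies on both sides.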

How the data were processed

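Agilent Feature Extraction (10.7.3.1) produced the deposited intensity of each spot. Background subtraction, detrending and spot flags are its steps, per the file headers. Per the file headers probe coordinates are on mm9. The authors' deposited table holds the same intensity values beside log2 fold changes, p-values and adjusted p-values. Limma is the tool named per the submitters' processing notes, and the sources used here do not give the normalization. Other deposited columns used are flags.

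Control spots (3671 of 62976 features) and spots flagged as outliers were left out, and spots of a probe averaged as log2 signal. Names came from the RefSeq table (GRCm38.p6) by unversioned accession for 27495 probes and by symbol for 3549, and 24616 kept the name in the files. Signals were divided by each array's 75th percentile over the 21615 probes (38.8%) well above background on all arrays, then printed with the mean percentile added back. Levels of different probes are not comparable. A probe was kept if every array of either group had it well above background (24836 probes), and the brightest stood for its gene (18228). Differences were tested with limma 3.58.1 in R 4.3.3, two-sided, with p-values adjusted by Benjamini-Hochberg against 0.05, separately for genes and for probes. On simulated data with each gene's spread on these arrays, the fit recovered 44 of 100 genes changed by 1 on the log2 scale. It recovered 0 of 100 changed by 0.5 and made 3 false calls. Fewer genes changed there than in the data, which makes the adjustment stricter. A member that did not pass cannot be read as unchanged. The number of arrays limits the precision.

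Named genes were the members, their paralogs, the 4 genes of each other list with the smallest p, the 3 profiles nearest to each member, and Exosc8; markers are given by list. The members and lists were chosen with earlier results of these data known. Alternatives were other scalings, background corrections, filters and probe choices, blocks, and each array left out; leaving out shExosc8 replicate 3 and shControl replicate 2 together was added after seeing the data.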

Additional observations from a re-analysis of the deposited data

How the results depend on the processing

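With 1 array left out in turn, the count of changed genes was 2343 to 8469 against 5439, that of changed members 0 to 4 against 3 and that of changed probes 0 to 6 against 4. The members' log2 fold changes then spanned -0.71 to -0.53 for Bcl11a, -1.12 to -0.71 for Igf2bp1, -0.61 to -0.38 for Igf2bp3, -0.27 to -0.16 for Lin28b, -0.65 to -0.33 for Hmga2, 0.55 to 1.11 for Sox6 and -0.068 to 0.27 for Zbtb7a. Without shExosc8 replicate 3 the fit gave the highest of each count, and Hmga2 passed (adjusted p = 0.0348).

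With no filter on dim probes 1815 genes changed, 0 members and 0 probes, with Bcl11a at -0.60 (adjusted p = 0.0882), Igf2bp1 at -0.86 (0.144) and Igf2bp3 at -0.50 (0.145), where more probes were tested. With no normalization between arrays, which moved the median of all genes to -0.56 from -0.061, 9167 genes, 5 members and 8 probes changed, Lin28b at -0.72 (0.029) and Hmga2 at -0.98 (0.0141), while Lin28a was at -0.039, opposite to its reported direction. With the percentile over all probes the median was -0.21, and 37.1% of changed genes rose, against 53.7% as reported, 18.0% without normalization and 66.9% with normexp and the 75th percentile. With normexp and quantile normalization 2 probes changed, Igf2bp1 stood at -0.80 (0.0633), Igf2bp3 at -0.46 (0.059) and Sox6 at 0.57 (0.045), and with normexp and the 75th percentile 2 probes changed, at -0.69 (0.0781), -0.36 (0.0884) and 0.76 (0.0217). With the mean of kept probes Lin28b stood at -0.43 (0.0239). The cause of these changes was not tested.

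Blocking on slide column, with 1 residual degree of freedom, 537 genes, 0 members and 0 probes changed, with Bcl11a at -0.55 (0.295), Igf2bp1 at -0.64 (0.372) and Igf2bp3 at -0.47 (0.383). In the replicate block fit 5 members changed against 3, with Sox6 at 0.88 (0.0387) and Hmga2 at -0.48 (0.0349) added. No label says whether same-numbered arrays share more than a number. Their deviations from the group means correlated at 0.0358, 0.219 and 0.303, and 4 of 6 arrays correlated best with their own number. Without shExosc8 replicate 3 and shControl replicate 2 together, chosen after seeing the data, 5 members and 7 probes changed, with Sox6 at 1.19 (0.0347) and Hmga2 at -0.78 (0.0192).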
